A study of Drosophila melanogaster with 3 samples.

Results

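Polycomb and Trithorax genes encode proteins that keep developmental genes off or on through cell division. The 9 genes described here are Pc, ph-p, Psc, Su(z)2, E(z), Su(z)12, esc, trx and ash1, chosen by name from 13968 protein-coding genes. For each gene, every lz-GFP ChIP-seq summit inside its annotated span or within 1 kb of either end was taken from the deposited dm6 peak lists. The study has 1 condition. Its 3 biological replicates are whole white prepupae of mixed sex from a transgenic Drosophila melanogaster line that carries lz with GFP fused to its C-terminal end, and chromatin was precipitated through the GFP. The age of the animals is labelled as unknown, and the promoter that drives the fusion is not given in the sources used here. Whole animals mix all tissues, so a summit cannot be assigned to a cell type. No untagged or untreated sample was analysed here, and with 1 condition there is no contrast to test, so all values below are descriptions.

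The protein lz (lozenge) is a Runx-family transcription factor with known roles in the developing eye and in blood cells. Polycomb proteins work in complexes. PRC1 binds chromatin and ubiquitylates histone H2A, and PRC2 methylates histone H3 on a lysine that marks silenced genes. Trithorax-group proteins counteract this silencing and maintain transcription. In flies both groups act through Polycomb response elements, which are bound by factors such as Pho, the GAGA factor and Zeste.

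The sequences below are shown because they carry the highest summits at ash1, ph-p, trx, E(z) and Su(z)12, with the next ph-p summit added. Each is the 101 bp centred on the summit, 5′ to 3′ on the forward strand of the dm6 build, read from the RefSeq genome sequence. Capitals mark a match to any of the 6 motifs searched on both strands, which are spelled out with the motif counts.
ash1, rank 1, chr3L:19590564-19590664: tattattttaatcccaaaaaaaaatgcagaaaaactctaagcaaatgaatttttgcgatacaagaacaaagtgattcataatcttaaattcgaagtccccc
ph-p, rank 27, chrX:2137273-2137373: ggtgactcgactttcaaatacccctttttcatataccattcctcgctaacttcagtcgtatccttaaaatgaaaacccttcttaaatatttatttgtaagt
trx, rank 166, chr3R:14283839-14283939: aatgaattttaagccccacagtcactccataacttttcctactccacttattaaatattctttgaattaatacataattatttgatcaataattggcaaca
ph-p, rank 178, chrX:2137926-2138026: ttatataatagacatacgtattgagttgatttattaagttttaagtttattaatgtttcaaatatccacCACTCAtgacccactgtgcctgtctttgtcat
E(z), rank 1184, chr3L:10638036-10638136: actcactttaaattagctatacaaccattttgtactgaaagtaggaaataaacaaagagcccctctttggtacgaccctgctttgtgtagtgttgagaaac
Su(z)12, rank 2161, chr3L:19923308-19923408: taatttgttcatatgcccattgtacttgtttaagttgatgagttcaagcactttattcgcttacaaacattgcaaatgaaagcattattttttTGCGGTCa
The capitals in the ph-p window are a Zeste-type match and those in the Su(z)12 window a Runx-type match. The other 4 windows held none of the 6 motifs. The share of G and C in these 6 windows ran from 27.7% at trx to 37.6% at E(z).

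The authors' thresholded set holds 8048 summits, which are the highest of 30000 called on the pooled replicates. The lists of 30000, pooled and per replicate, hold background regions as well as peaks. Calls beyond rank 8048 are therefore not read as binding. Ranks run from 1, the strongest, by the authors' signal value, which is not comparable between lists, so only ranks are compared here. The 9 genes held 15 of the 8048 thresholded summits and 45 of the 30000 pooled calls. They held 49 calls in replicate 1, 30 in replicate 2 and 50 in replicate 3, of 30000 each. In the thresholded set 6 of the 9 genes had a summit, beside 38.1% of all protein-coding genes. Among all pooled calls each of the 9 genes had at least 1, beside 62.3%. When each replicate was limited to its 8048 highest calls, 7 genes had a summit in replicate 1, 6 in replicate 2 and 6 in replicate 3, against 40.5%, 34.6% and 38.1% of all protein-coding genes. The genes are long, with a median span of 11411 bp against 2164.5 bp for all protein-coding genes. Among genes whose span was within 20% of a given member's, between 35.7% and 70.2% had a thresholded summit, depending on the member, so the count of 6 is not read as particular to these genes.

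**Figure D1:**
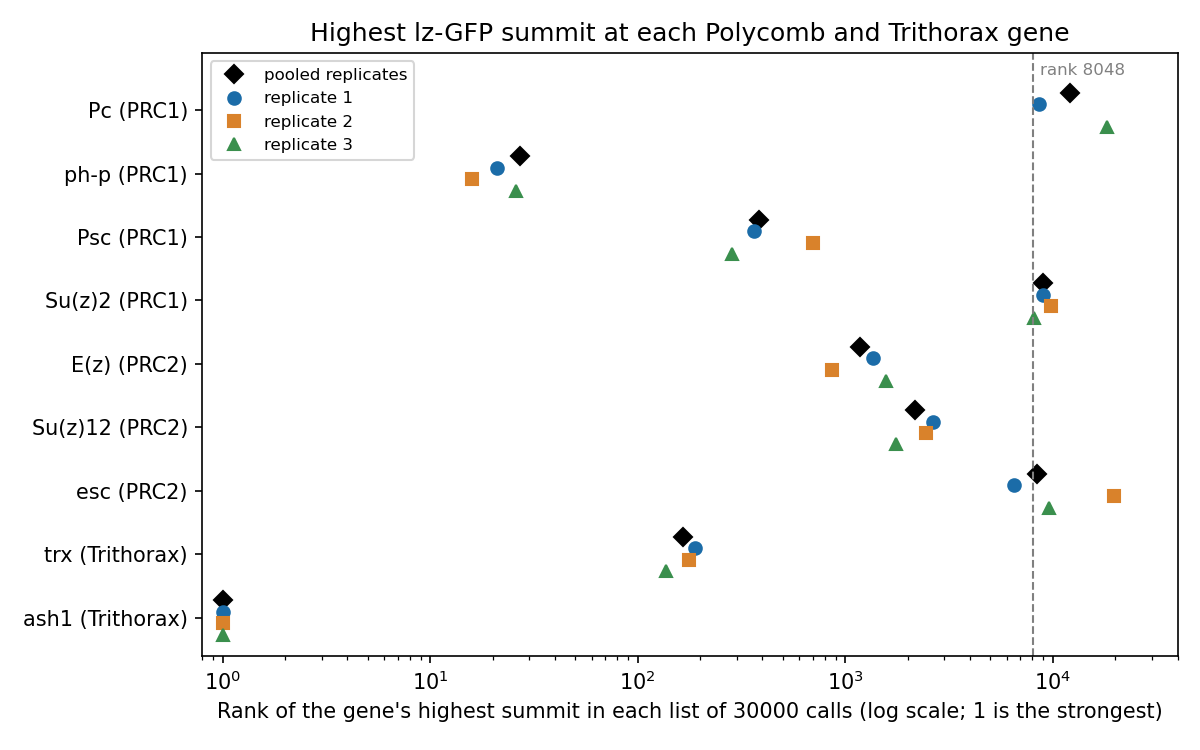
Rank of the highest summit at each of the 9 genes (rows) in the pooled list (diamonds) and in each replicate's list of 30000 calls (other symbols), on a log axis where 1 is the strongest; the dashed line is rank 8048. The ash1 summit was rank 1 in all 4 lists, while Pc, Su(z)2 and esc lay beyond the line in the pooled list, and Pc had no call in replicate 2.

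**Figure D2:**
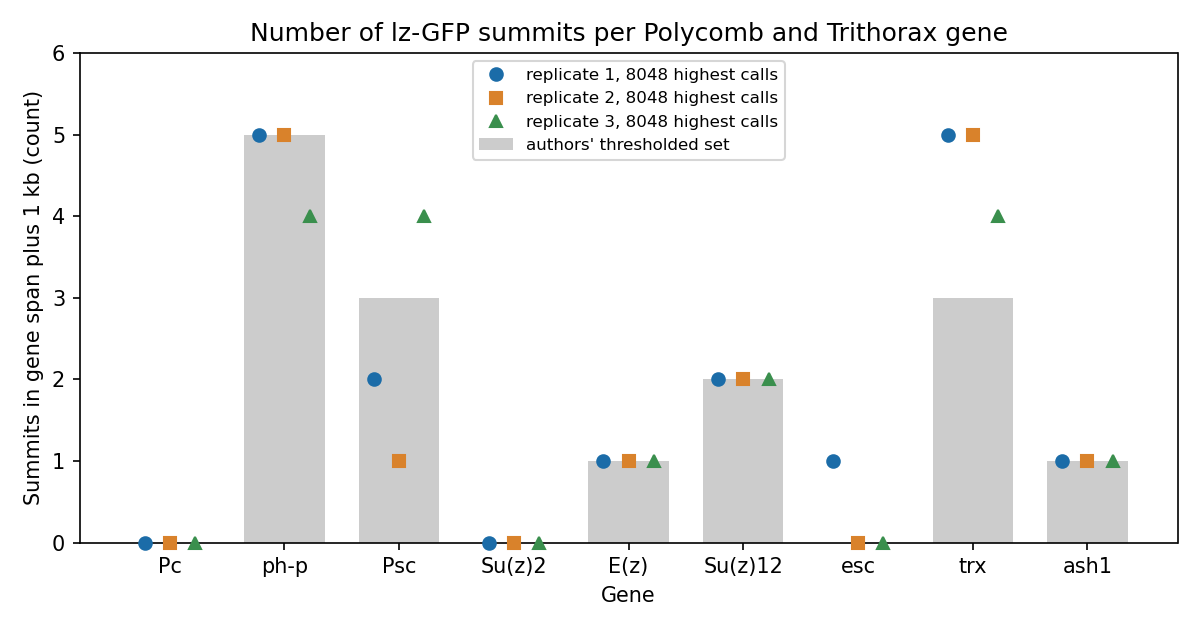
Number of summits (vertical axis) within the span plus 1 kb of each gene (horizontal axis) among the 8048 highest calls of each replicate (symbols) and in the authors' thresholded set (bars). Counts reached 5 at ph-p and at trx and were 0 at Pc and Su(z)2 in all 4 sets.

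The PRC1 genes differed widely among themselves: ph-p had 5 thresholded summits, Psc had 3, and Pc and Su(z)2 had 0. The gene ph-p (FBgn0004861, chromosome X, 2126210 to 2138371, minus strand) encodes a Polyhomeotic subunit of PRC1. Its highest summit, at 2137323, was rank 27 in the pooled list, and rank 21 in replicate 1, 16 in replicate 2 and 26 in replicate 3. The mean replicate rank was 21 ± 5 (SD, n = 3), so the replicates placed it in nearly the same position. It lay 1048 bp downstream of the gene's 5′ end and 468 bp upstream of an internal transcription start site. The replicate summits lay within 13 bp of each other. Only 37 of the 5328 genes with a thresholded summit had a better top rank, among them 1 of the 550 genes of like span.

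The other 4 thresholded ph-p summits lay in the 5′ part of the gene. The summit at 2137976, 395 bp downstream of the first start site, was rank 178 in the pooled list, and rank 159, 186 and 121 in replicates 1, 2 and 3. Intronic summits at 2135398 and 2134441 were ranks 478 and 699 in the pooled list. The summit at 2135398 had ranks 433, 439 and 564 in replicates 1, 2 and 3, and that at 2134441 had ranks 629, 788 and 709. These 4 highest summits were therefore called in every replicate within a narrow range of ranks. The fifth, at 2136538 and 84 bp downstream of a start site, was rank 5973. It was less steady, with ranks 6244, 2947 and 10930 in replicates 1, 2 and 3 and positions spread over 109 bp. The 5 summits together spanned 3535 bp, with gaps of 957, 1140, 785 and 653 bp. Of the 8048 thresholded summits, 129 (1.60%) lay in the 33 runs that were as tight. The 8048 highest calls gave 5, 5 and 4 summits at ph-p in replicates 1, 2 and 3. Of the 550 genes of like span, 16 had at least 5 thresholded summits, and the mean over those genes was 1.19. Of the 36-base words in the ph-p span, 32.2% occurred elsewhere in the genome, but none of those in the 201 bp around any of the 15 thresholded summits did.

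**Figure D3:**
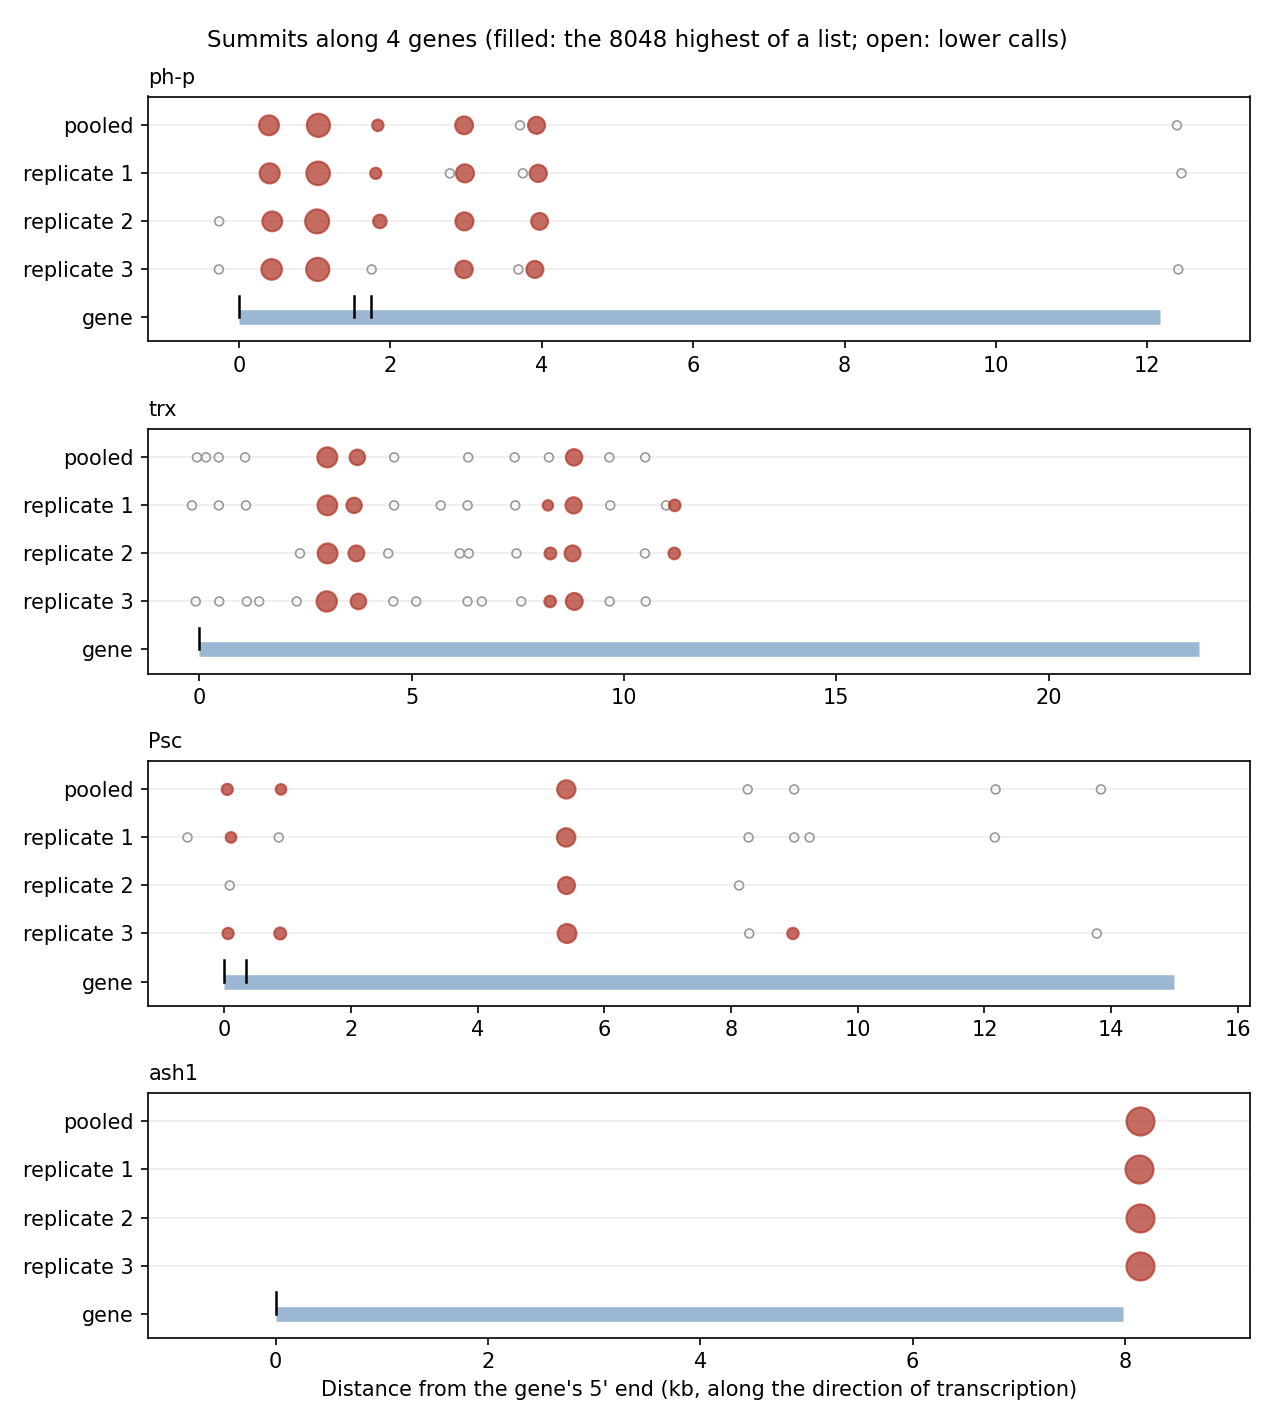
Summits along ph-p, trx, Psc and ash1 in the pooled list and each replicate (rows) by distance in kb from the gene's 5′ end along transcription; filled points are the 8048 highest calls of a list, larger for better ranks, open points are lower calls, the bar is the gene and ticks are annotated start sites. The 5 thresholded ph-p summits lie in the first 4 kb, whereas the ash1 summit lies past the 3′ end.

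Psc and Su(z)2 are neighbouring, related genes whose products are alternative RING-finger subunits of PRC1. Psc (FBgn0005624, chromosome 2R, 12965997 to 12980994, minus strand) had its highest summit in an intron at 12975595, 5399 bp from the 5′ end. That summit was rank 385 in the pooled list and ranks 365, 703 and 284 in replicates 1, 2 and 3 (mean 451 ± 222, SD), with positions within 14 bp. Replicate 2 ranked it lowest. The other Psc summits were weak: one at 12980947, 47 bp from a start site, was rank 6340 in the pooled list, and one in an exon at 12980099 was rank 7524. The start-site summit was rank 7443, 9135 and 6146 in replicates 1, 2 and 3. The exonic summit had rank 11240 in replicate 1 and 4955 in replicate 3, and replicate 2 did not call it. The replicates' 8048 highest calls gave Psc 2, 1 and 4 summits (mean 2.33 ± 1.53, SD), so its count differed between replicates. Without replicate 1, and likewise without replicate 3, 1 Psc summit was matched in both remaining replicates. Among 463 genes of like span, 62.6% had a thresholded summit, 99 had at least 3 and 37 had a better top rank.

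Su(z)2 (FBgn0265623, chromosome 2R, 12996501 to 13007911, plus strand) had no thresholded summit and none among the 8048 highest calls of any replicate, but 10 weaker pooled calls. The best of them, at 13005370 in an intron, was rank 8987, close to the threshold, and ranks 9244, 11246 and 8174 in replicates 1, 2 and 3. A thresholded summit at 13008979, rank 5266, lay 1068 bp from the gene, just beyond the 1 kb margin. Near its first start site, the call at 12996558, 57 bp downstream, was rank 13693, with ranks 11045 in replicate 1 and 17413 in replicate 3 and no call in replicate 2. Of 559 genes of like span, 57.6% had a thresholded summit.

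Pc (FBgn0003042, chromosome 3L, 21306138 to 21318020, minus strand), which encodes the chromodomain subunit that binds methylated histone H3, also had no thresholded summit. Its single pooled call, at 21318043 and 23 bp upstream of its start site, was rank 12091. The call was rank 8610 in replicate 1 and 18345 in replicate 3, and replicate 2 had none. A roo transposon of 9101 bp fills 76.6% of the annotated Pc span. Of the 36-base words in the span, 76.3% occurred elsewhere in the genome. The part of this repeat in the lack of calls was not tested. Of 563 genes of like span, 58.1% had a thresholded summit. That span includes the transposon, so these genes are not matched to the rest of Pc. At the shorter spans of esc (2202 bp) and E(z) (3556 bp), the shares were 35.7% and 44.3%.

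Among the PRC2 genes, E(z) and Su(z)12 had thresholded summits at their start sites that all 3 replicates held, and esc did not. E(z) (FBgn0000629, chromosome 3L, 10634575 to 10638130, minus strand) encodes the methyltransferase itself. Its summit at 10638086, 44 bp downstream of the start site, was rank 1184 in the pooled list and ranks 1366, 865 and 1570 in replicates 1, 2 and 3 (mean 1267 ± 363, SD). The same summit lay 60 bp upstream of the start site of the divergent gene Cnep1r2, whose start is 16 bp away, so it cannot be assigned to either gene. Among 1419 genes with spans like that of E(z), 44.3% had a thresholded summit and 136 had a better top rank.

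Su(z)12 (FBgn0020887, chromosome 3L, 19918242 to 19923462, minus strand) encodes a zinc-finger subunit needed for methylation. It had a summit at 19923358, 104 bp downstream of its start site, rank 2161 in the pooled list. Replicates 1, 2 and 3 ranked it 2639, 2446 and 1765. A weaker summit at 19923557, 95 bp upstream, was rank 5245 in the pooled list, and 5919, 7305 and 5811 in replicates 1, 2 and 3. All 3 replicates thus called both, each within 24 bp. The pair was 199 bp apart, which equals the smallest gap between any 2 thresholded summits, and 433 of 8042 neighbouring pairs were within 220 bp. Both also lay within 1 kb of Pfdn6, a divergent gene starting 209 bp away, at 313 and 114 bp upstream of it. Like the E(z) summit, they cannot be assigned to either gene. Among 1056 genes with spans like that of Su(z)12, 49.7% had a thresholded summit and 207 had a better top rank.

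The gene esc (FBgn0000588, chromosome 2L, 11827204 to 11829405, minus strand) encodes a WD-repeat subunit that PRC2 needs for its activity. It had no thresholded summit. Its best pooled call, at 11829457 and 52 bp upstream of the start site, was rank 8409, just outside the threshold. That call was rank 6548 in replicate 1, 20460 in replicate 2 and 9640 in replicate 3, so it was among the 8048 highest calls in replicate 1 alone. Only 35.7% of the 2042 genes of like span had a thresholded summit, so most such genes had none either.

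Both Trithorax genes had thresholded summits by the rule of span plus 1 kb, but the only one counted at ash1 lay outside that gene. The gene trx (FBgn0003862, chromosome 3R, 14263358 to 14286903, minus strand) encodes a histone H3 methyltransferase. Its 3 thresholded summits were all intronic, at 3014, 3722 and 8823 bp from the start site. The highest, at 14283889, was rank 166 in the pooled list and ranks 190, 177 and 137 in replicates 1, 2 and 3 (mean 168 ± 27.6, SD). The summit at 14278080 was rank 916 in the pooled list and ranks 1005, 1122 and 737 in the replicates. The summit at 14283181 was rank 1354 in the pooled list and ranks 1445, 1177 and 1341 in the replicates. The replicate orders of the 3 summits were the same. No thresholded summit lay at the annotated start site. Of the 329 genes of like span, 70.2% had a thresholded summit, with a mean of 2.13, and 8 had a better top rank. At least 3 thresholded summits were held by 109 of those genes. The replicates' 8048 highest calls held 5, 5 and 4 trx summits, more than the 3 thresholded ones.

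The ash1 gene (FBgn0005386, chromosome 3L, 19590773 to 19598755, minus strand) encodes a histone H3 methyltransferase of the Trithorax group. The strongest summit of the whole series lay within its 1 kb margin. The summit, at 19590614 with a pooled interval of 19590385 to 19590841, was rank 1 in the pooled list and in replicates 1, 2 and 3. Its replicate positions lay within 7 bp. The summit was 159 bp past the annotated 3′ end of ash1 and 8141 bp from its start site. It lay 90 bp upstream of the start site of the neighbouring gene CG14100. It is counted at ash1 through the 1 kb margin: with the gene span alone, or with each summit given to its nearest start site, ash1 had 0. Among 686 genes with spans like that of ash1, 56.3% had a thresholded summit. Beside CG14100, which has the same summit, the genes with replicate ranks most like those of ash1 were eIF2Bbeta and Ugalt. Their ranks were 2, 2 and 2, at a distance of 0.521 in log10 rank over the 3 replicates.

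Most of the summits at the 9 genes had a call in every replicate. The thresholded summits are the 8048 highest calls on the pool of these same replicates, so such support is partly built in. Of the 15 thresholded summits, 12 had a call within 100 bp among the 8048 highest of all 3 replicates, 2 in 2 replicates and 1 in 1. Of all 8048 thresholded summits, 65.0% (95% Wilson interval 63.9% to 66.0%, counting error only) had support in all 3. Replicate positions spread over a median of 29 bp (7 to 109 bp, n = 14), against 40 bp for all thresholded summits with a call in all 3 replicates (12 to 93 bp between the 10th and 90th percentiles). The ratio of the worst to the best replicate rank had a median of 1.49, against 1.55. Both values for the 9 genes lie near those of all summits.

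**Figure D4:**
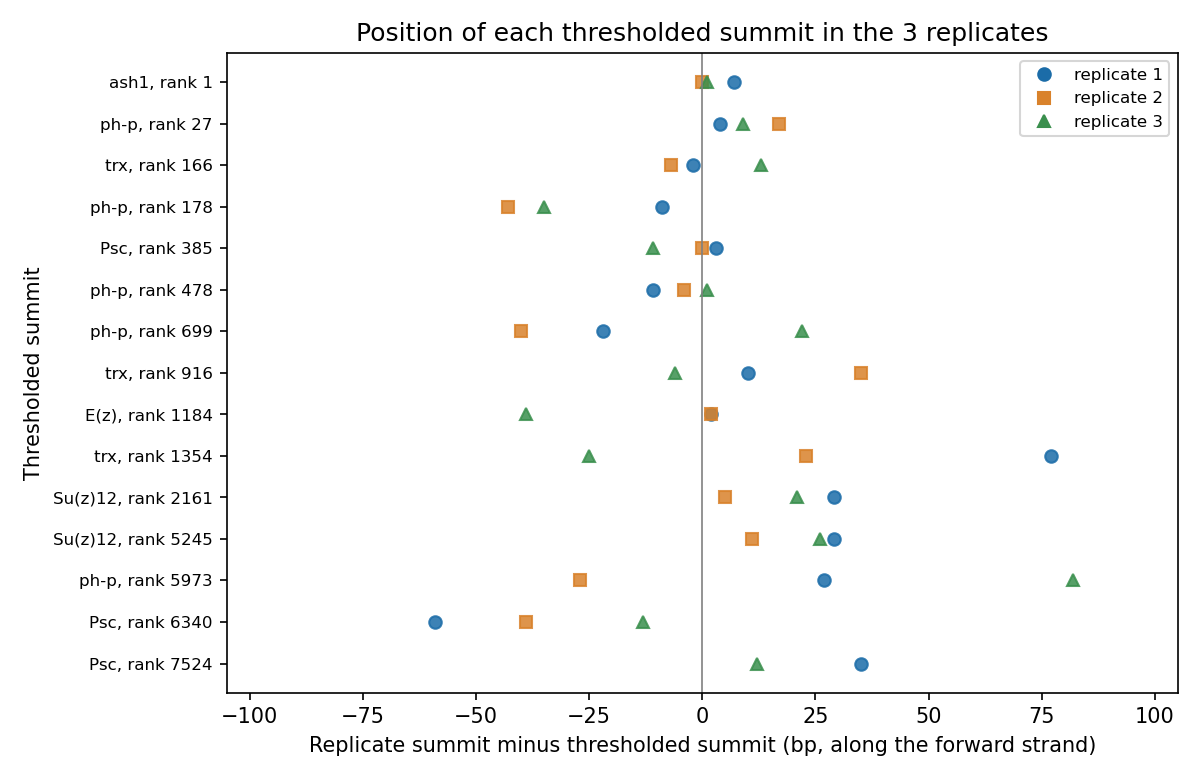
Distance in bp along the forward strand from each thresholded summit (rows, by pooled rank) to its nearest call among all 30000 of each replicate. The ash1 offsets stay within 7 bp, and the ph-p summit of rank 5973 has the widest spread, 109 bp; the Psc summit of rank 7524 has no call in replicate 2.

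Of the 15 summits, 8 lay within 500 bp of an annotated start site, 6 in introns, 1 in an exon and 0 between genes. Among all thresholded summits 42.6% lay at start sites, 38.5% in introns, 2.32% in exons and 16.5% between genes; the search within gene spans makes intergenic summits rare here by construction. Of these 8 start-site summits, 4 are shared with a neighbouring gene: those of ash1 and E(z) and both of Su(z)12. The one counted at ash1 lies at the start site of CG14100 and not at that of ash1. The median share of G and C in the 101 bp was 30.7% (18.8% to 55.4%), against 32.7% for all thresholded summits (23.8% to 46.5% between the 10th and 90th percentiles). The trx summit of rank 916 had the lowest share, 18.8%, and the Psc start-site summit the highest, 55.4%.

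The 6 motifs were AACCACA or AACCGCA or GACCACA or GACCGCA for Runx, GCCAT for the Pho core, GAGAG for the GAGA factor, CGAGCG or CGAGTG or TGAGCG or TGAGTG for Zeste, TATCGATA for DRE and CGATAT for BEAF-32. None of the matches overlapped another. Within the 101 bp, Runx, Pho core, GAGA and Zeste forms each matched 1 of the 15 windows. Of all 8048 windows, 216 held a Runx form, 1072 the Pho core, 724 GAGA and 780 Zeste. DRE and BEAF-32 forms matched 0 of the 15 windows, against 129 and 455 of all 8048. In all, 11 of the 15 windows held no match, against 65.8% of all windows.

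Other genes of the same systems were taken from 3 lists, 52 genes in all. The share of all protein-coding genes with a thresholded summit, 38.1%, is the background for each. Among other Polycomb genes, 8 of 15 (53.3%) had a thresholded summit, and the 8048 highest calls gave 10, 8 and 9 genes in replicates 1, 2 and 3. In this list jing had 12, the best at rank 615, in a span of 119787 bp, and Kdm2 had 6, the best at rank 818. Sfmbt and mxc had best ranks 1161 and 1193, and Asx and Caf1-55 had none. Among other Trithorax genes, 19 of 26 (73.1%) had one, and the replicates gave 22, 18 and 17. Without replicate 1, 12 of these genes kept a thresholded summit matched in both remaining replicates, and so did 29.2% of all protein-coding genes. The best rank was 17 at osa, a subunit of the Brahma chromatin-remodelling complex, with replicate ranks 15, 19 and 20; brm, its ATPase, had best rank 351, tna 540 and nej, which encodes the acetyltransferase CBP, 604. Neither ash2 nor Bap170 had one. Of the factors that bind response elements, 8 of 11 (72.7%) had one, also 8 in each replicate, led by Trl, which encodes the GAGA factor, at rank 43 (replicate ranks 49, 51 and 31) and Adf1 at rank 50 (66, 33 and 52). Dsp1 and grh had best ranks 203 and 248, and phol and Spps had none. The median spans of the 3 lists were 4565, 6886.5 and 7013 bp, all above the 2164.5 bp of all protein-coding genes. These lists were not set beside genes of like span, so their shares are not read as particular to these genes. The tagged gene lz itself (FBgn0002576, chromosome X, 9284649 to 9303636) had 3 thresholded summits, the best at rank 3295.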

How the data were processed

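ChIP-seq of lz-GFP in 3 replicates of 1 group was analysed from the deposited dm6 lists: 30000 peaks and background regions per replicate, 30000 on the pooled replicates, and 8048 thresholded peaks. The values are the authors' deposited signal per peak, used to rank peaks within a list. Calling used 1 control alignment, per the deposited file lists, and that control was not analysed here. The lists carry no counts, so the read depth is unknown. Aligner, peak caller and reproducibility level were not given in the sources used here. Nothing in the labels beyond the biological replicate numbers says how the animals were grown or collected separately. The dm3 lists were not used.

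Genes are Ensembl release 115 models and sequence is the RefSeq genome of the same build: of 15182 annotated start codons, 99.9% read ATG. Coordinates are 1-based. A gene had a summit when one lay in its span or within 1 kb. Replicates were limited to their 8048 highest calls, and summits within 100 bp were matched. A start-site summit lay within 500 bp of any annotated start. The 36-base words were counted over the genome. Motifs were searched in 101 bp. The counting was tested on simulated data. The tools were pandas 2.3.3, numpy 2.4.6, matplotlib 3.10.9 and scipy 1.17.1 under Python 3.11.15.

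Members, lists and motifs were chosen with earlier results of these data known. Named genes are the 9 members, up to 4 genes of each other list with the highest summit and the first 2 by name with none, the gene nearest to or sharing each member summit, the 3 genes most like the leading member in replicate ranks, and lz; 3 list genes matched by another name and 0 were missing. Alternatives changed the margin, the number of peaks, the match distance, the start-site distance and the window, and left out each replicate.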

Additional observations from a re-analysis of the deposited data

How the results depend on the processing

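Counts, mean counts included, were judged by a limit of 1.5 times the reported value, and ranks and base composition by 1 SD. Of 62 alternative values of the main results, 50 stayed within their limit and 12 did not. Alternative values were also taken for the counts at single genes and for the share of all annotated genes. Of those, 58 stayed and 15 moved. With the 5 kb margin, ph-p had 11 thresholded summits, not 5, and Pc and Su(z)2 had 2 each, not 0. With the gene span alone, Su(z)12 had 1, not 2, and ash1 had 0. The number of genes with a thresholded summit stayed between 5 (gene span alone) and 8 (5 kb margin), beside 15.9% and 59.4% of all protein-coding genes. With the 5 kb margin, the 9 genes held 30 thresholded summits, not 15, and 14 other Polycomb genes had one. With the gene span alone, 4 other Polycomb and 9 other Trithorax genes had one. With the highest 4024 thresholded peaks alone, 12 other Trithorax genes had one, beside 24.8% of all protein-coding genes. Leaving out 1 replicate meant keeping the thresholded summits matched in both others, and no list was called again without it. This gave 6 genes with a summit each time and 12 to 13 summits at the 9 genes. It also gave 7 to 8 other Polycomb genes and 12 to 15 other Trithorax genes. The share of all protein-coding genes with a summit was then 29.2%, 32.8% and 29.6% without replicates 1, 2 and 3, against 38.1% for the whole thresholded set. The mean replicate rank of the highest ph-p summit was 21 (SD 5), against 27 in the pooled list. In 301-bp windows, Runx forms matched 3 of the 15 windows, the Pho core 6, GAGA 7, Zeste 5 and BEAF-32 1, against 10.6%, 38.1%, 32.3%, 35.0% and 14.5% of all windows; a longer window holds more matches by construction. Assignment to the nearest start site alone, an alternative chosen after seeing the data, left 6 genes with a summit, with 0 at ash1 and 1 at Su(z)2. No paired analysis was possible because the study has 1 group.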

Other observations

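In trx, a summit at 14278671, 591 bp from the thresholded summit at 14278080, was only rank 10377 in the pooled list, yet was rank 7911, 5228 and 5683 in replicates 1, 2 and 3. Of the 21952 pooled calls below the threshold, 12 (0.0547%) were matched within 100 bp among the 8048 highest calls of all 3 replicates, and this was the 1 such call among the 30 below the threshold at the 9 genes.

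A second trx feature appeared in replicates but not in the pooled list. Intronic summits at 14275709 (replicate 1, rank 5571) and 14275720 (replicate 2, rank 5431) lay 11 bp apart, replicate 3 had no call there, and the nearest pooled call was 14276404, rank 22528. Of 5774 summits shared by the 8048 highest calls of replicates 1 and 2, 67 had no pooled call within 100 bp and 20 none within 500 bp.

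Pc, which had no thresholded summit, lay beside one of the strongest in the series. The summit at 21304572, rank 53, was 1566 bp past its 3′ end and 86 bp from the start site of CG11309. The gene ph-d, a neighbouring paralog of ph-p chosen for mention after its values were seen, had 5 thresholded summits, the best at rank 1586, with ranks 2098, 1101 and 1408 in replicates 1, 2 and 3. The last thresholded peak had a signal of 91.6553 and the first below the threshold 91.6499, so no gap in signal separates calls on either side.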
